A study of Mus musculus with 10 samples.

Results

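The proteasome is the ATP-dependent protease that degrades proteins carrying ubiquitin chains, and its transcripts were followed here in 2 mouse tumour cell lines. The members were all rows of the deposited table whose gene symbol is Psm, a letter from a to g and a number, without the immunoproteasome genes Psmb8, Psmb9 and Psmb10. This gave 45 genes of 54343 rows. They comprised 8 genes for the outer (alpha) rings of the core particle, 8 for its inner (beta) rings, 9 for the base and 8 for the lid of the regulatory particle, 5 for activators and an inhibitor, and 7 for assembly factors. Of these, 43 were tested. Psma8, the alpha subunit of testis, was listed at 0 in every library, and Psmb11, the beta subunit of the thymus cortex, reached at most 0.0179 FPKM.

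The core particle is a barrel of stacked rings, in which the beta subunits encoded by Psmb5, Psmb6 and Psmb7 carry the proteolytic sites. The base contains a ring of ATPases that unfolds substrates, the lid removes ubiquitin, and separate activator complexes can open the barrel without ATP. Cells of many tissues raise these genes together through the transcription factor NRF1 (gene Nfe2l1) when proteasome activity is short, and interferon replaces the catalytic subunits by immunoproteasome forms that change the peptides available to MHC class I.

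RNA was taken from cultured cells of MC38 (genotype label Wild type, 5 libraries) and of MC38.T4 (genotype label Low mesothelin expression, 5 libraries). MC38 is bought stock of a line from C57BL/6 mice that the treatment text calls colon cancer and the tissue label calls melanoma. MC38.T4 descends from a huMSLN-transfected MC38 clone (pcDNA3.1 vector) that was grown as a tumour in mice, brought back into culture and cloned again from a single cell with low mesothelin. It is thus 1 clone that differs from its parent by transfection, passage in mice and 2 rounds of cloning, which cannot be told apart. Whether the libraries of each line stem from separate cultures is not said in the labels; p-values therefore cover only the spread among these samples, which may be technical. Values are FPKM, a fragment count relative to the length of a gene and to library size, which allows levels of different genes to be compared per length.

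The libraries were of similar depth, between 0.874 and 1.14 of MC38 replicate 1 as read from the spacing of low values. Read totals were not given in the sources used here. Sums of FPKM lay between 442183, in MC38 replicate 1, and 484460, in MC38.T4 replicate 4. MC38 replicate 1 was the lowest MC38 library for 33 of the 43 tested members, among them all 14 of the core, and MC38.T4 replicate 4 stood apart by its Malat1 (125 FPKM, where its line otherwise held 53.1 to 75.9 FPKM). Of 10 colon epithelium markers 9 were under 1 FPKM in every library, as were 6 of 7 melanocyte markers, all 6 leukocyte markers and all 4 endothelial markers, with Cdx2, Tyr, Cd3e and Adgre1 at 0 throughout. Neither tissue named by the labels was therefore shown by its markers. The summed level of 5 fibroblast markers was 15.6 to 19.8 FPKM in MC38 and 76.0 to 84.9 FPKM in MC38.T4, and its part in the results was not tested. Of the 5, Col1a1 and Fap were under 1 FPKM in every library, while Dcn went from a mean of 16.8 to 58.1 FPKM and Pdgfrb from 0.191 to 19.2 FPKM.

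Proteasome genes went both ways between the lines. Among the 43 tested members 15 were higher in MC38.T4, 17 were lower and 11 did not pass (limma on log2(FPKM + 1), Benjamini-Hochberg adjusted p under 0.05). Over all 11110 tested genes the share that passed was 86.0%, 43.1% higher and 42.9% lower, beside 74.4% of the members. These shares of all tested genes are also the background for the counts by class and by list below. In bulk RNA, fewer cells of a kind and less RNA per cell cannot be told apart. A change of at least 2-fold on the log2(FPKM + 1) scale was found for Psma5 and Psme1, which rose, and for Psmb5, Psmd8, Psmf1 and Psmg3, which fell. These are 14.0% of the members, beside 17.2% of all tested genes (10.0% higher and 7.14% lower). The lines did not overlap for 27 members (62.8%, beside 77.4% of all tested genes). For 16 members (37.2%, beside 45.9% of all tested genes) the test was passed with mean FPKM at least 1.5-fold apart. Mean FPKM stayed within 1.2-fold between the lines for 20 members (46.5%, beside 26.6%). The median log2 change (MC38.T4 minus MC38) was 0.02 over the members and 0.00 over all tested genes, and the median size of the change was 0.28 and 0.47. After rescaling to TPM the members' median was -0.029, so its sign did not hold under every scaling. Without the 2 libraries that stand apart, a choice made after seeing the data, 16 members were higher and 17 lower.

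**Figure D1:**
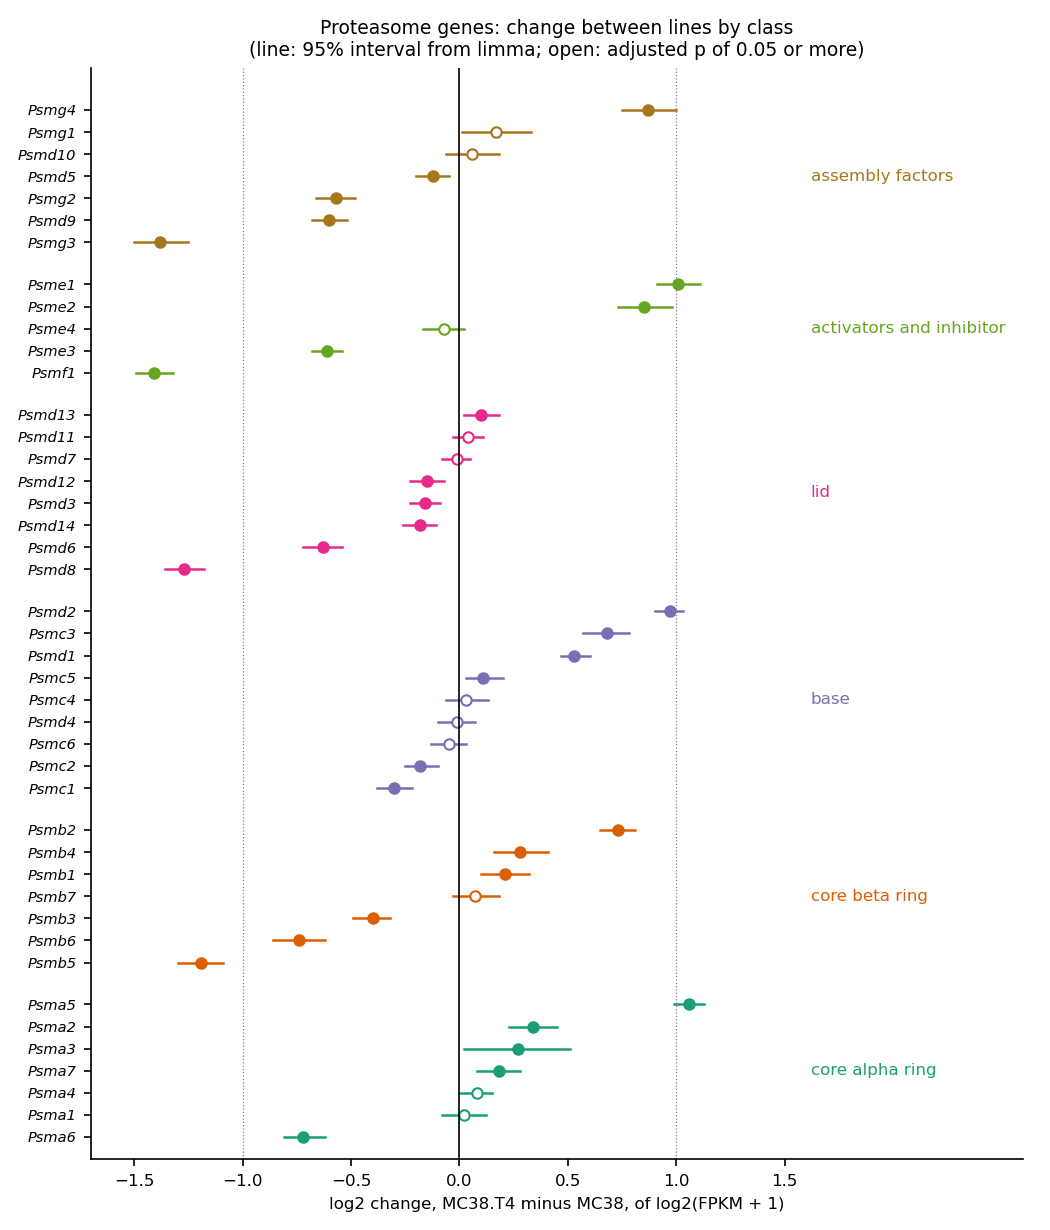
Log2 change (MC38.T4 minus MC38, of log2(FPKM + 1), horizontal axis) of each of the 43 tested proteasome genes, sorted within 6 classes by colour; lines are 95% intervals from limma and open circles are the 11 genes that did not pass. Every class holds genes on both sides of 0, and the values run from -1.41 (Psmf1) to 1.06 (Psma5).

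In the alpha rings, which form the gate of the barrel and dock the regulators, 4 of 7 tested genes rose, 1 fell and 2 did not pass. Psma5 stood at 103.0, 110.7, 105.0, 108.4 and 111.8 FPKM in MC38 replicates 1 to 5 and at 221.5, 231.0, 228.1, 222.3 and 224.0 FPKM in MC38.T4. Every MC38.T4 library was thus above every MC38 library, by 2.09-fold in the means (log2 change 1.06, SE 0.032, limma adjusted p = 1.56e-13). Psma6 ran the other way, from 220.8, 262.5, 243.5, 262.9 and 242.4 FPKM in MC38 to 147.8, 149.3, 153.8, 146.9 and 148.2 FPKM in MC38.T4. It fell 1.65-fold, with no overlap (log2 change -0.72, SE 0.045, limma adjusted p = 5.72e-10). Over all 252 ways to assign the libraries to lines, the exact permutation test gave p = 0.00794 for both genes (two-sided), the smallest it can give and the value of every member whose lines did not overlap.

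Psma2, the tested alpha subunit with the lowest level, read 35.0, 42.7, 38.0, 36.8 and 38.9 FPKM in MC38 and 45.4, 50.4, 53.1, 46.7 and 47.8 FPKM in MC38.T4. All MC38.T4 libraries were above MC38, by 1.27-fold. Psma7, a subunit replaced by Psma8 in testis, rose 1.13-fold, from 246.3 ± 16 to 279.5 ± 13 FPKM (SD, n = 5 per line). Psma1 had 116.4, 142.9, 126.1, 131.6 and 122.9 FPKM in MC38 and 127.1, 133.1, 133.6, 128.3 and 125.1 FPKM in MC38.T4, with a 95% interval of the log2 difference from -0.08 to 0.12. For Psma4, 137.2, 154.4, 142.1, 147.7 and 150.8 FPKM in MC38 stood beside 160.0, 151.8, 155.1, 154.5 and 150.8 FPKM in MC38.T4 (log2 difference 0.08, limma adjusted p = 0.0613). The MC38.T4 values of Psma1 lay inside the MC38 range, and those of Psma4 overlapped the upper end of its MC38 range. Psma4 was called higher with quantile normalization (adjusted p = 0.0275) and without MC38 replicate 2 (0.0238).

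Psma3 was the tested member with the widest spread, and a row with a similar sequence varied beside it. Its levels were 73.7, 105.5, 88.5, 95.3 and 86.2 FPKM in MC38 and 98.5, 118.2, 129.1, 92.0 and 103.4 FPKM in MC38.T4, with overlap (log2 change 0.27, SE 0.111, limma adjusted p = 0.0446, exact permutation p = 0.0714). Of the stretches of 50 bases in its GENCODE M21 coding transcripts, 22.0% also occur in Gm13835, a gene model that stood at 31.1 ± 4.5 FPKM in MC38 and 48.5 ± 8.3 FPKM in MC38.T4. Libraries with more Psma3 had less Gm13835 in several cases. MC38 replicate 1 had the lowest Psma3 (73.7 FPKM) and the highest Gm13835 of its line (36.4 FPKM), and MC38.T4 replicate 4 did likewise in its own (92.0 and 60.4 FPKM). The sum of both rows did not overlap between the lines, at 110.1 to 132.1 FPKM in MC38 and 145.1 to 169.6 FPKM in MC38.T4, with a coefficient of variation of 6.5% in either line against 13% and 14% for Psma3 alone. The call of Psma3 was lost without MC38 replicate 1, 3 or 5 and without MC38.T4 replicate 2, 3 or 5, with an adjusted p up to 0.105, and also with no filter (0.0683), after rescaling to TPM (0.0649) and with equal medians (0.0664).

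The catalytic genes of the beta rings parted from each other. Psmb5, which gives the chymotrypsin-like site, was at 231.2, 274.5, 240.2, 249.7 and 267.6 FPKM in MC38 and at 112.6, 115.4, 110.4, 105.9 and 104.1 FPKM in MC38.T4. All MC38.T4 libraries were below all MC38 libraries and the means differed 2.30-fold (log2 change -1.19, SE 0.048, limma adjusted p = 3.55e-12). Psmb6, the caspase-like site, was at 175.2, 212.3, 183.9, 190.6 and 211.5 FPKM in MC38 and 105.9, 122.3, 115.5, 114.4 and 121.5 FPKM in MC38.T4, again without overlap and 1.68-fold lower (limma adjusted p = 8.21e-09). Psmb7, the trypsin-like site, read 156.7, 185.7, 170.8, 168.4 and 175.2 FPKM in MC38 and 164.5, 191.0, 186.7, 174.2 and 185.6 FPKM in MC38.T4. It did not pass (log2 difference 0.07, limma adjusted p = 0.174). Quantile normalization called it higher (adjusted p = 0.0352). Within each library the ratio of Psmb5 to Psmb7, which no scaling of a whole library can alter, was 1.41 to 1.53 in MC38 and 0.561 to 0.684 in MC38.T4. The order of the catalytic genes by mean level was Psmb5, Psmb6, Psmb7 in MC38. There the ranges of Psmb6 and Psmb7 overlapped, but Psmb6 was above Psmb7 within each library (ratio 1.08 to 1.21). In MC38.T4 the order was Psmb7, Psmb6, Psmb5. There Psmb6 and Psmb5 overlapped, and in replicate 1 Psmb5 was the higher of these (112.6 and 105.9 FPKM).

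The immunoproteasome genes, which are left out of the members, were all higher in MC38.T4, where Psmb5 and Psmb6 were lower and Psmb7 did not pass. A link between these changes was not tested. Psmb8, the counterpart of Psmb5, rose 2.19-fold to 123.3 ± 4.8 FPKM, Psmb9, the counterpart of Psmb6, rose 8.65-fold, and Psmb10, the counterpart of Psmb7, rose 3.69-fold. Psmb8 read 0.217 to 0.229 of the Psmb5 level in MC38 libraries and 1.04 to 1.19 of it in MC38.T4 libraries. For Psmb9 over Psmb6 the ratio was 0.0175 to 0.0213 and 0.259 to 0.291, and for Psmb10 over Psmb7 0.0452 to 0.0526 and 0.153 to 0.191. In MC38.T4, then, only the transcript of Psmb8 exceeded that of its constitutive counterpart among these 3 pairs, in all 5 libraries.

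**Figure D2:**
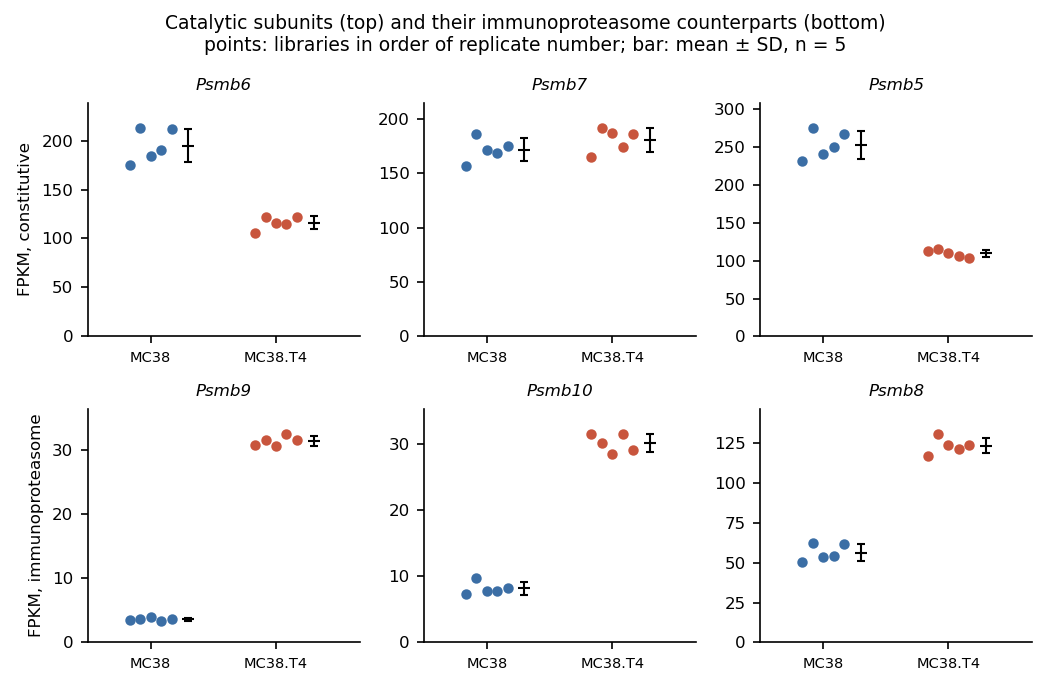
FPKM (vertical axes from 0) of the 3 catalytic beta genes (top) and their immunoproteasome counterparts (bottom) in the 5 libraries of each line; bars are mean ± SD. Psmb5 and Psmb6 are lower in every MC38.T4 library and Psmb7 overlaps, while Psmb8, Psmb9 and Psmb10 are higher in every MC38.T4 library.

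Upstream sequence of the promoters is shown for the members with a match to the core of the antioxidant response element, the motif bound by NRF1 and NRF2 with small MAF proteins, where the match lies wholly before the start site within 80 bases. The element was searched as TGACNNNGC on both strands, from 250 bases before to 50 after each RefSeq start (assembly GRCm38.p6, another build than the authors' GRCm39), and 37 of the 45 members had an entry. Psma8, Psmb1, Psmb2, Psmb7, Psmc3, Psmd3, Psmd7 and Psmg2 were not matched. Each line below gives the 80 bases before the start, 5′ to 3′, with the match in capitals.
Psmb5, chr14:54617996-54618075, minus strand: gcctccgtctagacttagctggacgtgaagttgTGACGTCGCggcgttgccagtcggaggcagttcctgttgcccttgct
Psmb6, chr11:70525277-70525356, plus strand: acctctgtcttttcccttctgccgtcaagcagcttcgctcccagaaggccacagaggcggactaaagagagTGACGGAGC
Psmd9, chr5:123228110-123228189, plus strand: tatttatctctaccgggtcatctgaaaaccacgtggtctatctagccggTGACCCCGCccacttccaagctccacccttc

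These 3 genes fell. Of the other 3 members with a match, Psmd12 fell 1.11-fold and Psmc6 and Psme4 did not pass, and among all tested members 39.5% were lower. Counted from the start, the matches span bases -47 to -39 in Psmb5, -9 to -1 in Psmb6 and -31 to -23 in Psmd9. Psmc6 and Psmd12 had matches farther upstream (-227 to -219 and -247 to -239) and Psme4 had one across the start. In all, 6 of 40 windows of members held the motif (15.0%), beside 12.4% of all 32851 windows and 14.1% of the windows of tested genes. The NF-Y box CCAAT was in 13 of 40 windows (32.5%, beside 37.4%). The core of the interferon-stimulated response element (GAAA, any 2 bases, GAAA, on both strands) was searched after the values of Psme1 and Psme2 were seen, and was in 5 of 40 windows (12.5%, beside 3.44%): those of Psme1 and Psmg4, which rose, Psmb3 and Psmd9, which fell, and Psmd4, which did not pass. This share counts Psme1, which prompted the search, and is therefore no test of the motif. Psme2, which also prompted it, had an entry but no match, and the immunoproteasome gene Psmb9 had none either. In Psme1 the match is on the reverse strand. The strand of the gene reads TTTCGCTTTC there, from base 10 to base 19 after the start. A match is a description of these letters and no evidence of binding.

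Among the beta genes without a proteolytic site, Psmb2 rose and Psmb3 fell. Psmb2 had 92.7, 107.1, 104.7, 102.8 and 102.6 FPKM in MC38 and 171.4, 174.7, 169.7, 169.8 and 163.1 FPKM in MC38.T4. The MC38.T4 libraries were all higher, 1.66-fold in the means (log2 change 0.73, SE 0.039, limma adjusted p = 9.93e-11). Psmb3, the most abundant member in MC38, fell 1.32-fold from 316.5 ± 16 to 239.4 ± 7.6 FPKM, also without overlap. Psmb4 rose from 152.0, 180.8, 161.9, 154.8 and 172.0 FPKM to 194.1, 218.8, 208.5, 178.1 and 200.0 FPKM, with 1 MC38.T4 library (178.1 FPKM, replicate 4) inside the MC38 range. Psmb1 rose 1.16-fold, from 130.4 ± 11 to 150.7 ± 6.9 FPKM. Counted over the beta rings, 3 of 7 tested genes rose, 3 fell and 1 did not pass.

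In the base, 4 of 9 genes rose, 2 fell and 3 did not pass. The scaffold gene Psmd2, whose product receives ubiquitin shuttle proteins and the deubiquitinase USP14, was at 107.3, 113.3, 110.9, 105.3 and 111.9 FPKM in MC38 and 215.7, 218.4, 213.9, 209.7 and 218.4 FPKM in MC38.T4. It rose 1.96-fold with no overlap (log2 change 0.97, SE 0.031, limma adjusted p = 2.86e-13). The other large scaffold gene, Psmd1, rose 1.45-fold, from 74.7 ± 2.2 to 108.4 ± 1.2 FPKM, so that the ratio of Psmd2 to Psmd1 lay between 1.41 and 1.54 in MC38 libraries and between 1.96 and 2.00 in MC38.T4 libraries. Both scaffold genes thus rose, by unequal amounts.

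The 6 ATPase genes Psmc1 to Psmc6, whose products form 1 ring with a copy of each, did not move together. Psmc3 rose 1.60-fold, from 52.4, 64.2, 61.1, 57.8 and 61.6 FPKM to 99.7, 95.1, 94.2, 91.3 and 96.2 FPKM, with every MC38.T4 library above MC38 (limma adjusted p = 2.71e-09). Psmc1 fell 1.23-fold, from 151.4, 157.8, 153.0, 153.1 and 155.3 FPKM to 126.7, 127.7, 131.6, 114.9 and 126.2 FPKM. Psmc2 fell 1.13-fold, from 86.8, 93.4, 90.9, 92.8 and 95.2 FPKM to 81.6, 79.4, 85.1, 76.8 and 83.0 FPKM. Neither Psmc1 nor Psmc2 overlapped between lines. Psmc5 rose 1.08-fold (limma adjusted p = 0.0122) with overlapping libraries, and the call did not hold with TPM (adjusted p = 0.0753) or equal medians (adjusted p = 0.0570).

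Psmc4 read 82.8, 98.2, 95.3, 92.4 and 96.6 FPKM in MC38 and 96.4, 95.6, 95.6, 96.8 and 91.5 FPKM in MC38.T4 (95% interval of the log2 difference -0.06 to 0.13). Psmc6 read 118.2, 123.3, 116.3, 124.2 and 118.2 FPKM and 116.5, 119.7, 121.2, 112.9 and 107.9 FPKM (interval -0.13 to 0.03), and Psmc6 was called lower on the TPM scale (adjusted p = 0.0216) and with equal medians (0.0488). Psmd4, which encodes a ubiquitin receptor, read 122.8, 141.9, 138.3, 134.2 and 143.3 FPKM and 135.2, 135.8, 131.9, 137.0 and 133.1 FPKM (interval -0.10 to 0.07). The lines overlapped for all 3 genes.

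In the lid, 5 of 8 genes fell, 1 rose and 2 did not pass. Psmd8, the subunit known to join last when the lid is built, had 253.0, 278.1, 256.7, 254.1 and 258.9 FPKM in MC38 and 105.7, 106.9, 102.6, 119.4 and 102.3 FPKM in MC38.T4. No library came near the other line, and the means differed 2.42-fold (log2 change -1.27, SE 0.044, limma adjusted p = 6.77e-13). Psmd8 went from the most abundant lid gene in MC38 to the fifth of the 8 in MC38.T4. Psmd6 fell 1.56-fold, from 119.5, 124.4, 125.7, 133.4 and 114.8 FPKM to 79.0, 82.2, 81.8, 74.1 and 79.7 FPKM (limma adjusted p = 1.41e-09), also without overlap.

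The other falls in the lid were small. Psmd14, the deubiquitinase that cleaves ubiquitin chains from substrates, fell 1.14-fold, from 141.8 ± 6.2 to 124.7 ± 2.8 FPKM, Psmd3 fell 1.12-fold and Psmd12 fell 1.11-fold. Psmd7, the structural partner of the deubiquitinase, read 151.1, 156.2, 158.6, 159.0 and 158.4 FPKM in MC38 and 155.8, 156.7, 155.4, 152.7 and 154.9 FPKM in MC38.T4. Its 95% interval of -0.08 to 0.05 on the log2 scale was the narrowest of the 11 members that did not pass. Psmd11, whose product clamps the lid to the core, read 68.2, 68.7, 73.8, 68.3 and 68.7 FPKM in MC38 and 72.0, 71.6, 73.9, 68.6 and 71.5 FPKM in MC38.T4, and did not pass (adjusted p = 0.270). Psmd13 rose from 50.3, 57.2, 53.8, 53.7 and 55.1 FPKM to 57.9, 60.6, 56.7, 55.9 and 57.6 FPKM (limma adjusted p = 0.0268). The libraries overlapped, and Psmd13 no longer passed with TPM (adjusted p = 0.187), with equal medians (0.111) or without MC38 replicate 1 (0.0604) or MC38.T4 replicate 2 (0.0763).

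The activators split by kind. Psme1 and Psme2 encode the chains of PA28 alpha-beta, a cytosolic cap that interferon gamma induces and that is known to favour peptides for MHC class I. Both are members by symbol, although they are inducible. Psme1 rose 2.05-fold, from 26.9, 31.1, 29.3, 29.7 and 30.4 FPKM to 60.1, 59.1, 57.5, 66.5 and 59.0 FPKM (log2 change 1.01, SE 0.046, limma adjusted p = 1.31e-11). Psme2 rose 1.82-fold, from 66.6, 84.6, 76.6, 75.7 and 78.9 FPKM to 142.8, 138.2, 140.4, 147.2 and 125.8 FPKM (limma adjusted p = 1.87e-09). Neither gene overlapped between lines, and the ratio of Psme1 to Psme2 was 0.368 to 0.404 in MC38 and 0.409 to 0.469 in MC38.T4.

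Psme2 has a near copy in the table, Psme2b, with which 54.9% of the 50-base stretches of its coding transcripts are shared. Psme2b read 20.6 to 27.7 FPKM in MC38 and 6.58 to 9.65 FPKM in MC38.T4, the direction opposite to Psme2. The handling of reads that fit both was not given in the sources used here. Values of either row are uncertain to that extent. Their sum did not overlap between the lines, with 94.4 to 105.2 FPKM in MC38 and 133.5 to 156.5 FPKM in MC38.T4, and was 1.46-fold higher in the means.

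Psme3, which encodes the nuclear activator PA28 gamma, fell 1.53-fold, from 194.1, 184.4, 193.5, 186.6 and 189.3 FPKM to 120.7, 127.2, 126.1, 119.6 and 125.4 FPKM (log2 change -0.61, SE 0.031, limma adjusted p = 5.96e-11). It stood above Psme2 in every MC38 library, with a ratio of Psme2 to Psme3 of 0.343 to 0.459, and at or below it in MC38.T4 (1.00 to 1.23). Psme4, which encodes the nuclear activator PA200, had 32.6, 27.0, 29.0, 30.6 and 28.3 FPKM in MC38 and 28.3, 28.3, 27.9, 27.1 and 28.1 FPKM in MC38.T4 (95% interval of the log2 difference -0.17 to 0.02). The MC38.T4 libraries lay inside the MC38 range, and Psme4 was called lower with equal medians (adjusted p = 0.0382) and without MC38 replicate 2 (0.0329).

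Psmf1 and Psmg3 had the largest changes of the 43 tested members. Their order was not stable: the log2 changes were -1.405 and -1.379 over all libraries, and -1.408 and -1.434 without MC38 replicate 1. Psmf1 encodes PI31, first described as an inhibitor of the core particle and later as an adaptor for its transport. Its level was 52.3, 56.0, 52.1, 50.8 and 52.3 FPKM in MC38 and 19.8, 18.8, 18.4, 20.6 and 18.8 FPKM in MC38.T4, a difference of 2.73-fold (log2 change -1.41, SE 0.038, limma adjusted p = 4.38e-14). The lines lay far apart, and 92.8% of all tested genes changed less.

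**Figure D3:**
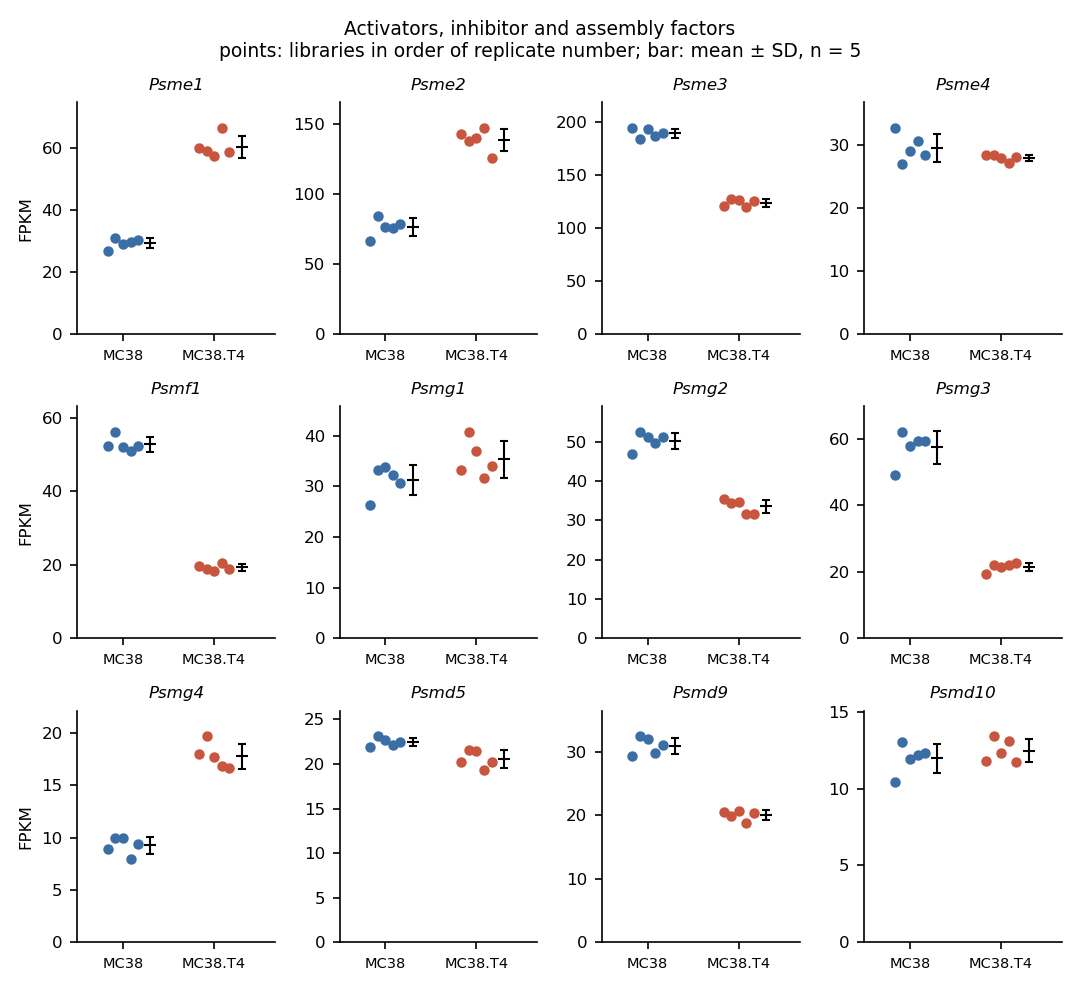
FPKM (vertical axes from 0) of the 5 activator and inhibitor genes and the 7 assembly factor genes in the 5 libraries of each line; bars are mean ± SD. Psme1, Psme2 and Psmg4 are higher in every MC38.T4 library, Psme3, Psmf1, Psmg2, Psmg3, Psmd5 and Psmd9 are lower in every one, and Psme4, Psmg1 and Psmd10 overlap.

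Assembly factors bind unfinished rings and leave before the proteasome is complete. Of 7 tested genes 1 rose, 4 fell and 2 did not pass. Psmg1 and Psmg2 encode a chaperone pair (PAC1 and PAC2) for the alpha ring, and Psmg3 and Psmg4 a further pair (PAC3 and PAC4). The partners Psmg3 and Psmg4 went opposite ways. Psmg3 fell 2.68-fold, from 49.0, 61.9, 57.8, 59.2 and 59.3 FPKM to 19.4, 21.9, 21.5, 21.9 and 22.6 FPKM (log2 change -1.38, SE 0.058, limma adjusted p = 7.77e-12). Psmg4 rose 1.92-fold, from 8.95, 10.0, 10.0, 7.99 and 9.45 FPKM to 18.0, 19.7, 17.7, 16.9 and 16.7 FPKM (limma adjusted p = 1.68e-09). Neither overlapped, and the ratio of Psmg3 to Psmg4 was 5.48 to 7.42 in MC38 and 1.08 to 1.35 in MC38.T4.

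Psmg2 fell, from 50.2 ± 2.0 to 33.5 ± 1.7 FPKM. Its partner Psmg1 read 26.4, 33.3, 33.9, 32.3 and 30.7 FPKM in MC38 and 33.3, 40.7, 37.1, 31.6 and 34.0 FPKM in MC38.T4 (log2 difference 0.17, limma adjusted p = 0.0505), and was called higher with quantile normalization (0.0353), a minimum FPKM of 5 (0.0456), without both libraries that stand apart (0.0305), and without MC38 replicate 2 or 3 or MC38.T4 replicate 1 or 4 (0.0229 to 0.0474). The ratio of Psmg1 to Psmg2 was 0.562 to 0.664 in MC38 and 0.941 to 1.18 in MC38.T4. For the alpha-ring chaperones, then, levels within a pair lay closer to each other in MC38.T4 than in MC38 for both pairs.

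Psmd5, Psmd9 and Psmd10 carry subunit symbols but encode chaperones of the base. Psmd9 fell 1.54-fold, from 29.3, 32.4, 31.9, 29.8 and 31.0 FPKM to 20.5, 19.9, 20.7, 18.8 and 20.3 FPKM (limma adjusted p = 8.16e-10). Psmd5 fell 1.09-fold, from 22.5 ± 0.46 to 20.5 ± 0.97 FPKM (limma adjusted p = 0.00535), and its libraries did not overlap. Psmd10, which encodes gankyrin, read 10.4, 13.0, 11.9, 12.2 and 12.3 FPKM in MC38 and 11.8, 13.4, 12.3, 13.1 and 11.7 FPKM in MC38.T4, with overlap (adjusted p = 0.329). It was the least abundant tested member in MC38.T4 (12.5 FPKM), as Psmg4 was in MC38 (9.28 FPKM).

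Summed over all 45 members, the proteasome rows made up 1.07% ± 0.018 of the FPKM sum of an MC38 library. In an MC38.T4 library they made up 0.987% ± 0.019 (SD, n = 5 per line), without overlap (1.05% to 1.10% and 0.964% to 1.01%). In FPKM the sums of the members were 4976 ± 216 and 4747 ± 87 and did overlap (4647 to 5245 and 4670 to 4875). The sum of the core genes was 2335 ± 145 and 2261 ± 63 FPKM, and the sum of base and lid was 2050 ± 58 and 1955 ± 26 FPKM. The ratio of these transcript sums (base and lid over core) within a library overlapped between lines. It was 0.840 to 0.920 in MC38 and 0.838 to 0.894 in MC38.T4. The core sum leaves out Psmb8, Psmb9 and Psmb10. Their means rose from 56.3, 3.64 and 8.18 FPKM to 123.3, 31.5 and 30.2 FPKM, and a ratio with them included was not computed. By class the sums were as follows. Alpha rings stood at 1003 ± 64 and 1095 ± 22 FPKM, beta rings at 1332 ± 85 and 1166 ± 44, the base at 975 ± 33 and 1118 ± 19, and the lid at 1075 ± 27 and 837 ± 8. In FPKM the lines overlapped for the alpha rings (910 to 1080 and 1071 to 1121) and the beta rings (1216 to 1440 and 1127 to 1235). They did not overlap for the base or the lid. As a share of the FPKM sum the beta rings did not overlap either (0.275% to 0.302% and 0.234% to 0.257%). On that scale the alpha rings still overlapped, and the base and the lid did not. Single genes weighed in these sums. Without Psma5 the ratio of the alpha sums (MC38.T4 over MC38) turned from 1.09 to 0.971, and without Psmb5 that of the beta sums was 0.978 in place of 0.875. Without Psmd2 the ratio of the base sums was 1.04 in place of 1.15, and without Psmd8 that of the lid sums was 0.896 in place of 0.779.

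Levels of core subunits, which enter the particle in equal numbers, spread 8.27-fold between the highest and lowest gene in MC38 and 5.74-fold in MC38.T4. This spread rested largely on Psma2, the lowest core gene in both lines (38.3 and 48.7 FPKM). The next lowest was Psma3 (89.8 and 108.2 FPKM). Such comparisons between genes also depend on gene lengths from an annotation that was not given. In the base and lid the spread was 4.82-fold and 3.73-fold. The coefficient of variation across the 14 tested core genes was 46.0% in MC38 and 37.5% in MC38.T4, and across the 17 base and lid genes 40.4% and 32.1%. Across genes, which share libraries and are not replicates, Spearman's rho of the mean levels between lines was 0.762 for the 43 members, 0.354 for the core and 0.615 for base and lid. Assembly factors had a median level of 30.9 FPKM in MC38 and 20.5 FPKM in MC38.T4, under the medians of the core (155 and 153 FPKM).

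**Figure D4:**
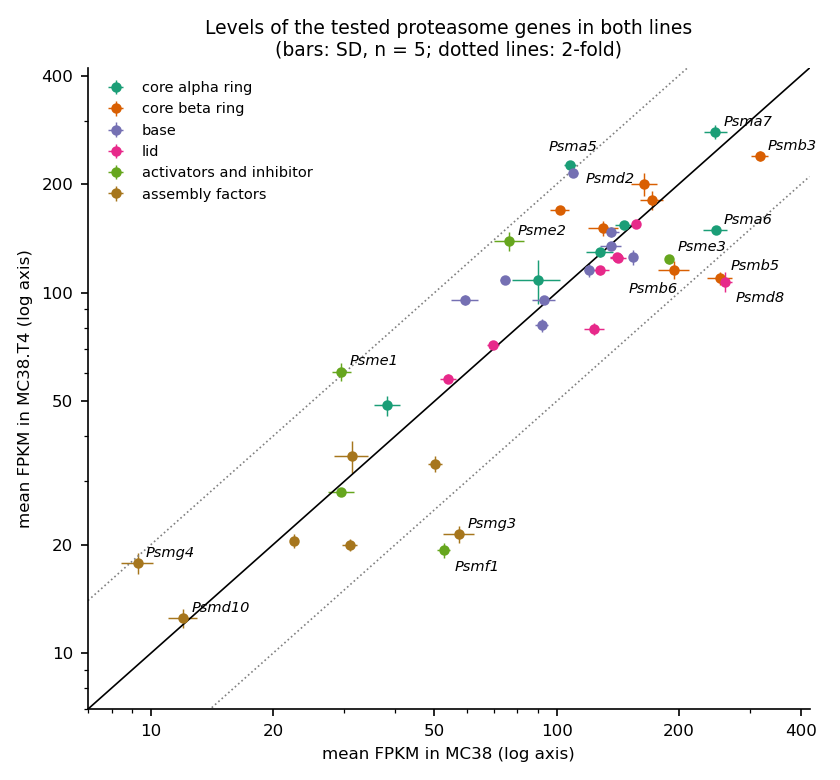
Mean FPKM of the 43 tested proteasome genes in MC38 (horizontal) and MC38.T4 (vertical), both on log axes, coloured by class, with SD bars (n = 5), the line of equality and dotted lines at 2-fold. Psmf1, Psmg3, Psmb5 and Psmd8 lie beyond the lower dotted line, and Psma5 and Psme1 on or just beyond the upper one.

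Reads shared with copies elsewhere in the genome touch other members too. In GENCODE M21 (GRCm38), 11 of 45 members share at least 10% of the 50-base stretches of their coding transcripts with transcripts of other genes, while 24 share none. Psmb3 (55.8%), Psma5 (54.5%) and Psmb5 (54.1%) share most beside Psme2. For Psmb5 the main copy, Gm3375, held 0.0899 FPKM in MC38 and 0.0435 FPKM in MC38.T4, and for Psmg3 the copy Gm26938 held 0.0674 and 0.0170 FPKM. The main copies of Psma5 (Gm8394, 37.2% of its stretches) and Psmb3 (AC114990.1, 39.9%) were not matched to a row, so their levels are not known here. Psmd8 and Psmf1 shared none.

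The genes that surround the proteasome were taken as 7 lists with 93 symbols, of which 92 were found and tested. Of these, 29 rose, 51 fell and 12 did not pass, with a median log2 change of -0.17, beside 43.1% higher and 42.9% lower among all tested genes. Among subunits without a Psm symbol, maturation factors and proteasome-associated proteins, 1 of 12 rose and 8 fell. Ecpas, which encodes a scaffold bound to core and regulatory particles, rose from 21.3 ± 0.52 to 47.3 ± 0.80 FPKM. Zfand5 fell from 112.9 ± 2.7 to 57.7 ± 2.4 FPKM, and Zfand2a, a stress-induced gene, fell 1.80-fold from 28.8 ± 0.63 FPKM.

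In the list for NRF1 and its control 6 of 16 genes rose, 8 fell and 2 did not pass. Genes that act on the NRF1 protein went both ways. Ngly1, the deglycosylating enzyme, rose from 2.94 ± 0.29 to 7.36 ± 0.16 FPKM. Ddi2, the protease that cleaves NRF1 and is also in the shuttle receptor list, fell from 34.3 ± 2.7 to 18.8 ± 0.40 FPKM, and Sel1l, of the ER degradation machinery, fell 2.57-fold; both are named after their values were seen. Nfya, a subunit of NF-Y, rose from 12.1 ± 0.36 to 20.5 ± 0.64 FPKM. Of the small MAF genes, Mafk fell 3.93-fold, to 10.4 ± 0.23 FPKM, and Maff fell 2.62-fold, to 13.0 ± 0.96 FPKM. Nfe2l1 itself, outside the rule for named genes and given because the motif above is that of its product, fell from 139.3 ± 3.8 to 111.6 ± 5.6 FPKM (limma log2 change -0.32).

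Among 6 ubiquitin and ubiquitin-activating genes both directions occurred. Uba1, the main activating enzyme, rose from 42.1 ± 1.9 to 81.4 ± 3.6 FPKM, while the polyubiquitin gene Ubb fell from 901.7 ± 31 to 520.0 ± 26 FPKM and Uba6 from 48.6 ± 3.0 to 28.5 ± 0.38 FPKM. Of 30 ubiquitin-conjugating enzymes 12 rose and 15 fell. Ube2c, the mitotic enzyme of the anaphase-promoting complex, rose 4.67-fold to 199.0 ± 9.3 FPKM and Ube2l6, which conjugates ISG15, rose 3.85-fold. Ube2g2, an enzyme of ER-associated degradation, fell 3.41-fold to 42.1 ± 0.98 FPKM and Ube2g1 fell 1.86-fold.

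Of 18 genes for the segregase p97 and its cofactors 4 rose and 12 fell. Vcp, p97 itself, rose from 143.3 ± 5.6 to 279.8 ± 10 FPKM, and its cofactor Nsfl1c rose 1.18-fold, while the deubiquitinase gene Atxn3 fell from 18.3 ± 2.1 to 6.30 ± 0.44 FPKM and Derl1 fell 1.70-fold. Of 8 shuttle receptor genes 7 fell. Sqstm1, which encodes p62, an adaptor shared with autophagy, fell 4.58-fold, from 1307.6 ± 50 to 285.2 ± 20 FPKM, and Ubqln1 fell 1.81-fold.

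**Figure D5:**
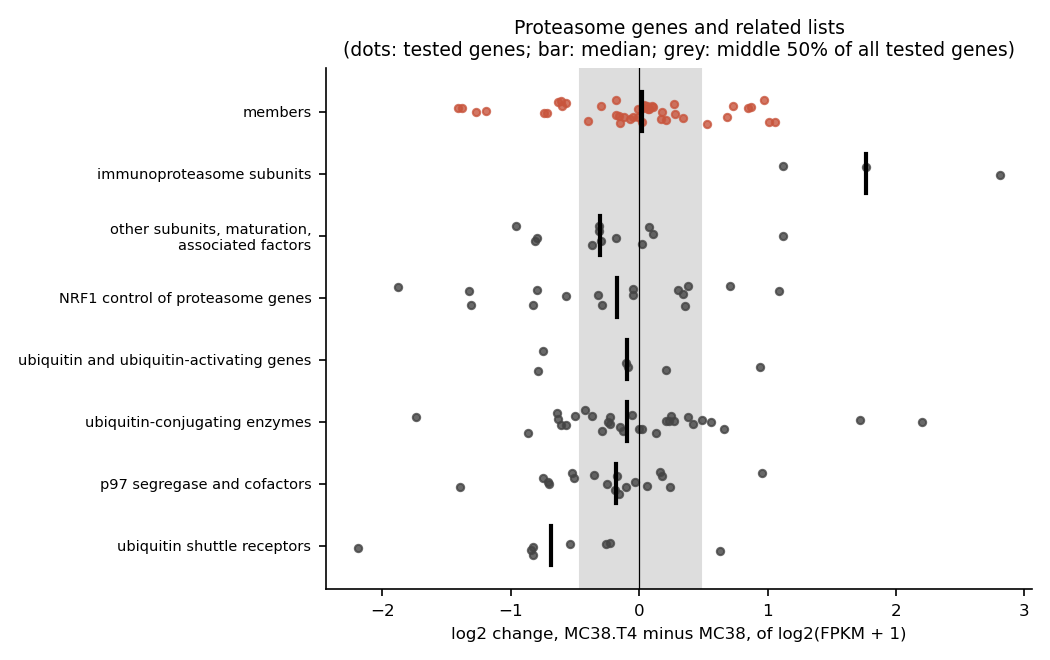
Log2 change (MC38.T4 minus MC38, horizontal axis) of the tested proteasome genes (top row) and of the genes in 7 related lists; each dot is a gene, black bars are medians and the grey band is the middle 50% of all tested genes (-0.46 to 0.48). All 3 immunoproteasome genes lie to the right of the band, and the shuttle receptors have the lowest median (-0.69).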

How the data were processed

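Strand-specific libraries of polyA-selected RNA were made with an Illumina TruSeq kit, per the labels' protocols. The authors deposited FPKM, with 1 column per library matched by library name. The submitters' processing notes name GRCm39 and DESeq2 without a role; the aligner, counting program and annotation were not given in the sources used here. No count test was run. The 11110 genes that reached 1 FPKM in 5 or more of the 10 libraries were tested with limma 3.58.1 in R 4.3.3 on log2(FPKM + 1), a scale on which low genes appear to change less, with trend and robust moderation and a group term only (two-sided, Benjamini-Hochberg, threshold 0.05). Folds are ratios of mean FPKM. The code was tested on simulated data. Python 3.11.15, NumPy 2.4.6, pandas 2.3.3 and matplotlib 3.10.9 did the rest. Members, lists and naming rule were chosen with earlier results of these data known. Per-library values are given for the catalytic genes, the 2 largest rises and falls per class and members that did not pass (also for Psma3, chosen after its values were seen); of each related list at most 2 rises and 2 falls with a mean FPKM of at least 5 are named, and some list genes are not reported here. Of 93 list symbols 1 was not matched. Whether same-numbered libraries of the lines pair was not settled, as given in the closing section. Other settings tried were TPM, a pseudocount of 0.1, leaving genes unfiltered, a stricter minimum of 5 FPKM, quantile normalization, equal medians, plain eBayes, a replicate block and leaving out libraries.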

Additional observations from a re-analysis of the deposited data

Results flagged for a closer look

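In 5 of 86 sets of 5 libraries, 1 library lay far from the other 4 of its line, where chance alone flags about 1 set in 20. Psmd8 was high in MC38 replicate 2 (278.1 FPKM, others 253.0 to 258.9) and in MC38.T4 replicate 4 (119.4 FPKM, others 102.3 to 106.9). Psmf1 was high in MC38 replicate 2 (56.0 FPKM, others 50.8 to 52.3) and Psmd11 in MC38 replicate 3 (73.8 FPKM, others 68.2 to 68.7). Psmc4 was low in MC38.T4 replicate 5 (91.5 FPKM, others 95.6 to 96.8). The gaps of Psmd8 and Psmf1 are small beside the differences of these genes between the lines. Those of Psmd11 and Psmc4 are larger than the differences of their means between the lines (69.6 and 71.5 FPKM, and 93.1 and 95.2 FPKM).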

How the results depend on the processing

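Of 43 tested members, 30 kept their direction and their side of the threshold in all 19 alternatives. The count of members higher in MC38.T4 was 15, 12 after rescaling to TPM or with equal medians and 18 with quantile normalization; leaving out 1 library gave 13 to 17 higher and 17 to 18 lower. Rescaling to TPM moved the members' median log2 change to -0.029 and the ratio of class sums (MC38.T4 over MC38) from 0.954 to 0.923 for base and lid together, from 0.779 to 0.753 for the lid and from 0.980 to 0.948 for activators and inhibitor. Leaving out 1 library gave a median from -0.014 to 0.035. Among members that did not pass, the sign of the log2 difference turned for Psma1 (-0.029 after rescaling to TPM, -0.009 with equal medians, -0.011 without both libraries that stand apart, and -0.014 to 0.059 without 1 library), Psmc4 (-0.013 after rescaling to TPM and without both libraries, and -0.007 to 0.054 without 1 library), Psmd4 (-0.050 to 0.005 without 1 library), Psmd10 (-0.005 without both libraries) and Psmd11 (-0.008 after rescaling to TPM). With the replicate number as a block 9534 genes passed in place of 9555, 16 members were higher and 17 lower, Psmg1 (log2 change 0.167, adjusted p = 0.00818) being called only there and in the settings given above. Same-numbered libraries correlated in their deviations from the line means at -0.129 to 0.142, and 2 of 5 MC38 libraries correlated best with their own number. The core sum was lowest in replicate 1 and highest in replicate 2 of both lines (2125 and 2520 FPKM in MC38, 2205 and 2356 FPKM in MC38.T4). For base and lid the lowest sum was in replicate 1 of MC38 (1956 FPKM) and in replicate 4 of MC38.T4 (1916 FPKM). Whether the libraries pair was thus not settled, and the block was not used in the main test. Read totals were not used here, so no counting interval is given.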
